A study of Mus musculus with 12 samples.

Results

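The transcripts of 10 genes for amino acid transport across the plasma membrane were followed in mouse liver: Slc3a2, Slc7a1, Slc7a2, Slc7a5, Slc7a11, Slc1a4, Slc1a5, Slc38a2, Slc38a3 and Slc6a9. The members were all probe sets that the platform's annotation gives the symbol of 1 of these 10 genes, whatever their values, and this gave 23 of the 34945 probe sets with a single symbol (45101 probe sets in all). The arrays measured livers of Ire1α conditional null and control mice under endoplasmic reticulum (ER) stress and without it. Ire1α, the product of Ern1, is an enzyme of the ER membrane that splices the Xbp1 transcript under stress, and tunicamycin causes ER stress by blocking N-linked glycosylation. Null livers with tunicamycin (titled Fe-CRE+Tm), null livers with vehicle (Fe-CRE+), control livers with tunicamycin (Fe+CRE+Tm) and control livers with vehicle (Fe+CRE+) were each measured on 3 arrays. All mice were C57Bl/6J and 3 months old, and both genotypes carry CRE+ in their titles. The sources used here give neither the promoter that drives Cre nor the part of Ern1 that was deleted. Each mouse received 1 intraperitoneal injection of tunicamycin, 2 µg per g of body weight, or of the vehicle, dextrose at 150 µM, and the liver was taken 8 h later.

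Cells hold amino acids against steep gradients with exchangers and sodium-coupled carriers, and the liver uses them to take up amino acids from portal blood for protein synthesis, urea formation and glutathione. When ER stress activates the kinase PERK, or a lack of amino acids activates GCN2, phosphorylation of eIF2α favours translation of the transcription factor ATF4. ATF4 is known to raise transcription of several amino acid transporters and of enzymes such as asparagine synthetase, often through composite sites it occupies with C/EBP factors. In cells lacking ATF4, uptake of some amino acids is known to be impaired.

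Levels are given as deposited intensities, a linear brightness per probe set, and levels of different probe sets cannot be set against each other. Changes are log2 differences ± their standard error (SE, limma, n = 3 arrays in each group), on quantile-normalized log2(intensity + 16), a scale that understates the change of dim probe sets. A gene is said to have risen or fallen at a Benjamini-Hochberg adjusted p under 0.05 over all 14568 genes tested, each represented by its brightest probe set. Of the 10 transporters 9 entered that test, because both probe sets of Slc7a11 were among the dimmest 30%. Of the 23 probe sets 19 passed this filter on dim signals.

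The trimmed mean intensity of an array lay between 240 and 303 with tunicamycin and between 228 and 261 with vehicle, before normalization. The summed intensity of 6 hepatocyte markers was 73932 to 76217 in null tunicamycin livers, 67757 to 69403 in null vehicle livers, 73244 to 78858 in control tunicamycin livers and 64426 to 70037 in control vehicle livers, and none of the 6 was called in either tunicamycin comparison. The brightest of 5 Ern1 probe sets gave 2147 to 4793 in null tunicamycin livers, 1083 to 1489 in null vehicle livers, 2950 to 3697 in control tunicamycin livers and 1119 to 1846 in control vehicle livers, so its ranges in the 2 genotypes overlapped. As the deleted part is not given, this signal does not check the genotype labels. Null tunicamycin replicate 2 stood apart: on it 10 of the 12 kidney markers measured exceeded their highest value on the other 11 arrays by over 1 on the log2 scale. The changes and counts of the transporters in null tunicamycin livers are therefore also given without this array. The spread was estimated from all 12 arrays together, so this array also enters the standard errors and adjusted p of the control comparison.

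With tunicamycin 6 of the 9 tested transporters rose in null livers and 0 fell, where 7.59% of all genes rose. In control livers 4 of the 9 rose and 0 fell, where 11.6% of all genes rose. Slc3a2, Slc7a1 and Slc6a9 rose in both genotypes, Slc7a5, Slc1a4 and Slc1a5 passed the test in null livers, and Slc38a2 passed it in control livers. The median change of the 9 was 0.91 in null livers and 0.62 in control livers, against -0.07 in null livers and -0.11 in control livers over all genes (0.01 and -0.01 when array medians were centred instead). Without null tunicamycin replicate 2 the null count was 3 of 9, Slc3a2, Slc7a5 and Slc6a9, beside 7.08% of all genes, and the members' median was 0.84. The null count was 2 of 9 without null vehicle replicate 3, where 1702 of 14555 genes were called in either direction (2449 with all arrays). Without control tunicamycin replicate 2 the control count was 2 of 9, where 2582 of 14564 genes were called (3636 with all arrays). After normalization the tunicamycin arrays lay all above the vehicle arrays for 7 members and all below for 1 in null livers, and above for 5 in control livers, while the groups did not overlap for 33.1% and 42.6% of all genes. Extracts of whole liver cannot tell a change in the number of cells of a type from a change in RNA per cell. The labels call the arrays of a group biological replicates.

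**Figure D1:**
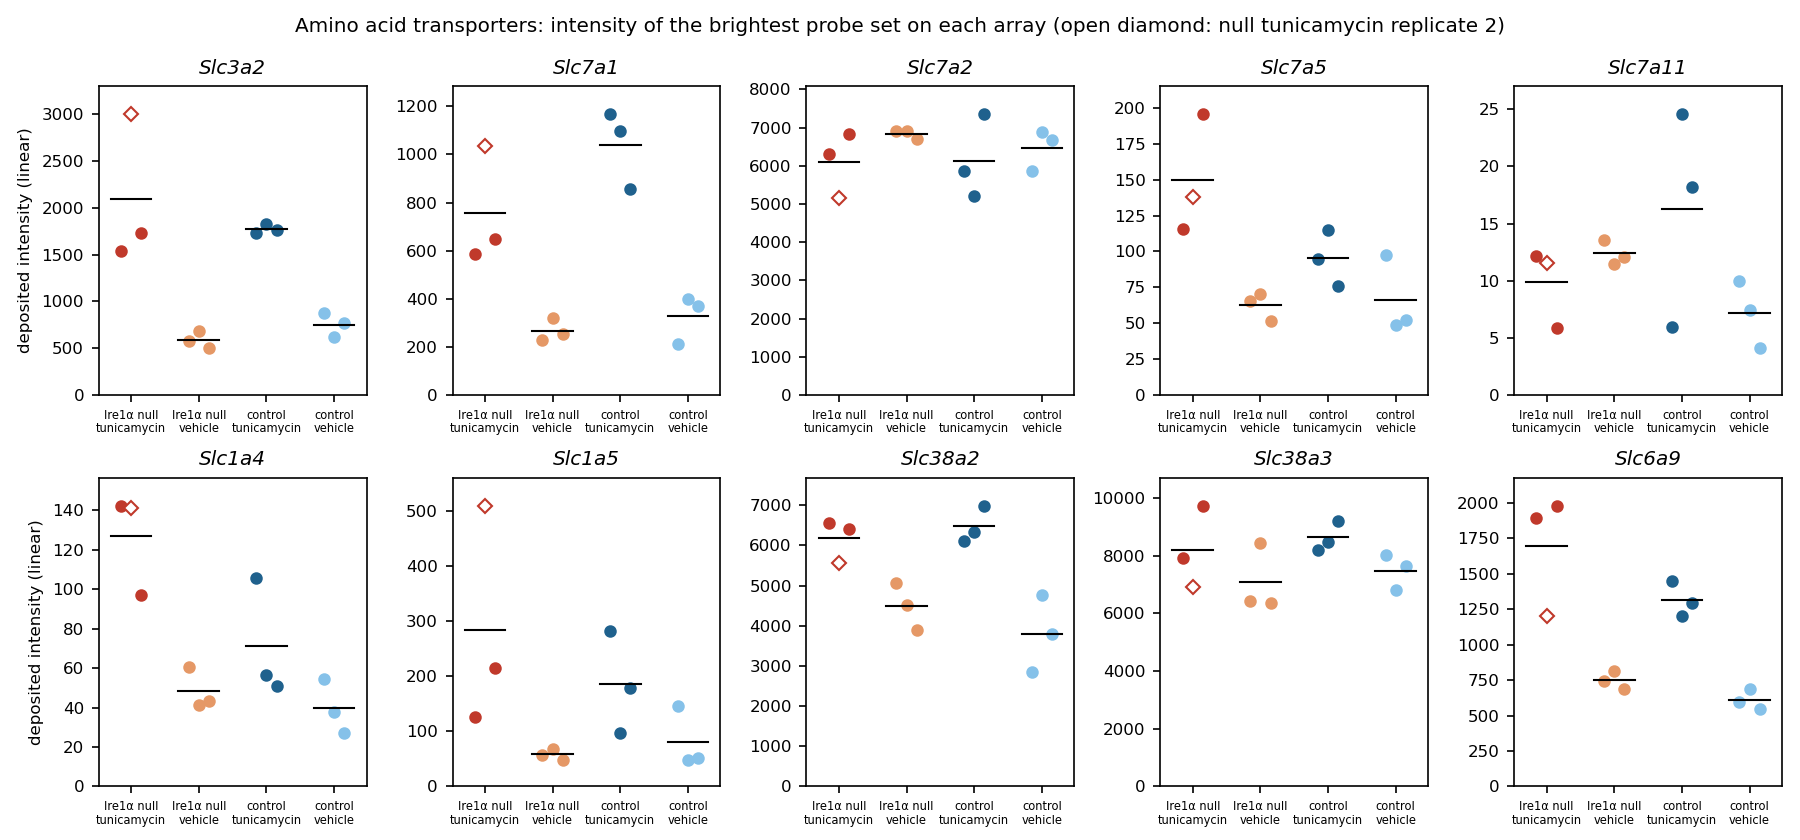
Deposited intensity (linear, each panel with its own axis starting at 0) of the brightest probe set of each transporter on the 12 arrays; points are arrays, horizontal lines are means of 3 arrays, and the open diamond is null tunicamycin replicate 2. For Slc3a2 and Slc6a9 all tunicamycin arrays lie above all vehicle arrays in both genotypes, while Slc7a2 and Slc7a11 overlap between treatments.

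Slc3a2 (chr19:8706882-8723369; gene spans are those of RefSeq on GRCm38.p6, since the array files hold no coordinates) encodes the CD98 heavy chain, a glycoprotein that pairs with light-chain transporters, Slc7a5 and Slc7a11 among them, and brings them to the plasma membrane. Its single probe set gave 1539, 3003 and 1735 in null tunicamycin livers and 573, 685 and 499.9 in null vehicle livers. In control livers it gave 1735, 1831 and 1764 with tunicamycin and 875, 616 and 768 with vehicle. All 6 tunicamycin arrays lay above all 6 vehicle arrays, and null tunicamycin replicate 2 was far above the rest. Slc3a2 rose by 1.52 ± 0.27 in null livers (2.86-fold, adjusted p = 0.00259), and by 1.13 ± 0.17 without that replicate (adjusted p = 0.0012). In control livers Slc3a2 rose by 1.00 ± 0.27 (1.99-fold, adjusted p = 0.0176). The control call was lost without control tunicamycin replicate 2 (0.96, adjusted p = 0.0585) and without control vehicle replicate 2 (0.87, adjusted p = 0.0690). Both of these fits kept null tunicamycin replicate 2, which enters the shared spread. In the limma fit of all probe sets the control change of Slc3a2 was 1.00 ± 0.27 (adjusted p = 0.0272). Without null tunicamycin replicate 2 it was 0.99 ± 0.15 (adjusted p = 0.00107).

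Slc7a5 (chr8:121881146-121907686), or LAT1, is the light chain that exchanges large neutral amino acids such as leucine. Its single probe set gave 116, 138 and 196 in null tunicamycin livers and 65.4, 70.6 and 51.4 in null vehicle livers. In control livers Slc7a5 gave 94.9, 115 and 75.8 with tunicamycin and 97.7, 48.5 and 51.9 with vehicle. The null groups were apart, whereas control vehicle replicate 1 lay inside the range of the control tunicamycin arrays. Slc7a5 rose by 0.90 ± 0.21 in null livers (adjusted p = 0.0139) and by 0.84 ± 0.24 without null tunicamycin replicate 2 (adjusted p = 0.0374). The null call was lost without null tunicamycin replicate 3 (0.78, adjusted p = 0.0588) and without null vehicle replicate 3 (0.83, adjusted p = 0.0537). The change in control livers was 0.41 ± 0.21 (adjusted p = 0.192), and 0.64 without control vehicle replicate 1, where it passed the test (adjusted p = 0.0366).

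Slc7a11 (chr3:50364936-50499087), or xCT, is the light chain that imports cystine in exchange for glutamate and so feeds glutathione synthesis. Its brighter probe set gave 12.1, 11.5 and 5.90 in null tunicamycin livers and 13.6, 11.5 and 12.1 in null vehicle livers. In control livers Slc7a11 gave 5.94, 24.6 and 18.2 with tunicamycin and 9.96, 7.44 and 4.13 with vehicle. The groups overlapped in both genotypes, and its mean log2 level ranked at percentile 20.1 of all probe sets. With the dim probe sets kept in the fit, the change of Slc7a11 was -0.15 ± 0.21 in null livers (adjusted p = 0.717) and 0.43 ± 0.21 in control livers (adjusted p = 0.188). At this signal a change of Slc7a11 was not detectable, and the 2 probe sets give no measure of whether the transcript was present.

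Of the 10 transporters, Slc7a11 and Slc1a4 had windows with the composite ATF4 and C/EBP motif, and their promoters are shown. Those of Slc3a2 and Slc38a2 are examples of genes that rose in at least 1 genotype and whose windows lack it. Slc7a1 and Slc6a9 rose as well and their windows lack it too, and they are not printed. Windows of 250 bases before to 50 after each start were taken from RefSeq (GRCm38.p6). For 6 of the 10 genes a window was matched, 9 windows in all, and Slc7a2, Slc7a5, Slc1a5 and Slc38a3 were not matched. The motif TGATGNAA, or TTNCATCA on the other strand, was in 2 of the 9 windows and in 3.97% of 32851 windows of all genes. Capitals mark it in the stretches printed here, each on the minus strand and read 5′ to 3′.
Slc7a11, chr3:50443614-50443733: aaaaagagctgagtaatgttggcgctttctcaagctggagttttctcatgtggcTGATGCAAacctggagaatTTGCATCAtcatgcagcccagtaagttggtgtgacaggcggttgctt
Slc1a4, chr11:20332710-20332833: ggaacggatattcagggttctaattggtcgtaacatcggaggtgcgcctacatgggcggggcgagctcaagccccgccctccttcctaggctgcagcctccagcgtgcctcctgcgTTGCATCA
Slc3a2, chr19:8713898-8714017: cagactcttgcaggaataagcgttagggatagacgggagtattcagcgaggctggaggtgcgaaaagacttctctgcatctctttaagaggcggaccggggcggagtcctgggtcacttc
Slc38a2, chr15:96699729-96699848: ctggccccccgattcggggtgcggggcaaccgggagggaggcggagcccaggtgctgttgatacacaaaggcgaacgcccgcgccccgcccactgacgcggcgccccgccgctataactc
The starts used for Slc7a11 and Slc3a2 lie inside the annotated span of the gene. In Slc7a11 the motif occurs on both strands, at -66 to -59 and at -47 to -40 counted from the start, and in Slc1a4 it spans the start, from -4 to 4. The XBP1 element TGACGTGG (CCACGTCA on the other strand) was in 0 of the 9 windows and in 0.676% of all windows. A match describes letters in a window, and the absence of one says only that these letters are not there.

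Slc7a1 (chr5:148327410-148399904), or CAT-1, carries the cationic amino acids arginine, lysine and ornithine and is known to be low in resting hepatocytes. Its brightest probe set gave 585, 1035 and 647 in null tunicamycin livers and 227, 318 and 254 in null vehicle livers. In control livers Slc7a1 gave 1168, 1096 and 856 with tunicamycin and 212, 399 and 372 with vehicle. Neither pair of groups overlapped, and replicate 2 was again the highest null array. Slc7a1 rose by 1.20 ± 0.32 in null livers (2.30-fold, adjusted p = 0.0242) and by 1.43 ± 0.32 in control livers (2.69-fold, adjusted p = 0.00645). Without null tunicamycin replicate 2 the null change was 0.83 ± 0.27 and no longer passed (adjusted p = 0.0614), as was the case without null vehicle replicate 1 (1.13, adjusted p = 0.0821) and without null vehicle replicate 3 (1.19, adjusted p = 0.0692).

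The probe sets of Slc7a1 disagreed. The next brightest gave 452, 547 and 420.1 in null tunicamycin livers, 396, 331 and 292 in null vehicle livers, 495, 471 and 649 in control tunicamycin livers and 255, 338 and 576 in control vehicle livers. Its changes were 0.24 ± 0.32 in null livers (adjusted p = 0.730) and 0.29 ± 0.32 in control livers (adjusted p = 0.633), in the fit of all 34945 probe sets. The third probe set of Slc7a1 was dim, between 8.96 and 33.3 over all arrays. The rise of Slc7a1 thus rested on 1 of its 3 probe sets.

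Slc7a2 (chr8:40862341-40922070), or CAT-2, is the cationic amino acid carrier typical of hepatocytes. Its brightest probe set ranked at percentile 99.2 of all probe sets, at 6309.6, 5155 and 6842 in null tunicamycin livers and 6901, 6909 and 6695 in null vehicle livers. In control livers Slc7a2 gave 5858, 5201 and 7354 with tunicamycin and 5861, 6876 and 6669 with vehicle. Its deposited intensities overlapped in both genotypes. After normalization the null tunicamycin arrays (12.40 to 12.61) lay all below the null vehicle arrays (12.77 to 12.88), and the control groups overlapped. The change of Slc7a2 was -0.30 in null livers (95% interval -0.65 to 0.04, adjusted p = 0.225) and -0.23 in control livers (-0.58 to 0.11, adjusted p = 0.317). None of its other 3 probe sets passed the test in either genotype. The 2 cationic carriers were thus read differently, with Slc7a1 past the threshold upwards and Slc7a2 not past it, a difference between genes that was not tested.

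Slc1a4 (chr11:20302180-20332713), or ASCT1, exchanges alanine, serine, cysteine and threonine. Its brightest probe set gave 142, 141 and 97.1 in null tunicamycin livers and 60.6, 41.3 and 43.1 in null vehicle livers. In control livers Slc1a4 gave 106, 56.3 and 51.1 with tunicamycin and 54.3, 38.0 and 26.9 with vehicle. The null groups were apart, and the control groups overlapped as deposited, through control vehicle replicate 1, but were apart after normalization. Slc1a4 rose by 1.00 ± 0.26 in null livers (2.01-fold, adjusted p = 0.0195). The change was 0.58 ± 0.26 in control livers (adjusted p = 0.123). Without null tunicamycin replicate 2 the null change was 0.84 ± 0.27 (adjusted p = 0.0591), and the call was also lost without null tunicamycin replicate 1, null vehicle replicate 2 or null vehicle replicate 3 (0.88 to 0.99, adjusted p = 0.0552 to 0.0676).

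A further probe set of Slc1a4 gave larger null differences, at 111, 205 and 94.3 in null tunicamycin livers and 19.8, 22.7 and 25.7 in null vehicle livers, against 88.6, 79.8 and 61.9 in control tunicamycin livers and 99.2, 35.9 and 40.9 in control vehicle livers. In the fit of all probe sets it rose by 1.83 ± 0.33 in null livers (adjusted p = 0.00505), and by 1.43 without null tunicamycin replicate 2 (adjusted p = 0.00967). This call of Slc1a4 therefore held without the array that carried kidney transcripts. In control livers the difference of the same probe set was 0.36 ± 0.33 (adjusted p = 0.563). Its null vehicle arrays lay all below its control vehicle arrays, with a difference of -0.85 ± 0.33 (unadjusted p = 0.0252, adjusted p = 0.935). The interaction of this probe set was 1.47 ± 0.47, the single one of the 23 probe sets with an unadjusted p under 0.05 (0.00875, adjusted p = 0.379), and 1.08 ± 0.37 without null tunicamycin replicate 2 (adjusted p = 0.473). The remaining probe set of the gene differed by 0.88 ± 0.32 in null livers (adjusted p = 0.119).

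Slc1a5 (chr7:16781334-16798274), or ASCT2, exchanges glutamine and other neutral amino acids and is known as a transporter of proliferating cells more than of resting hepatocytes. Its brighter probe set gave 126, 510.5 and 215 in null tunicamycin livers and 58.0, 68.5 and 48.4 in null vehicle livers. In control livers Slc1a5 gave 283, 97.1 and 179 with tunicamycin and 145, 47.9 and 51.8 with vehicle. Replicates of each tunicamycin group were far apart, and control vehicle replicate 1 lay between the control tunicamycin arrays. Slc1a5 rose by 1.67 ± 0.51 in null livers (3.19-fold, adjusted p = 0.0435), against a change of 0.98 ± 0.51 in control livers (adjusted p = 0.187). Without null tunicamycin replicate 2 the null change was 1.04 ± 0.40 (adjusted p = 0.107). The null call of Slc1a5 held under 10 of 26 alternative settings, the fewest of the called transporters, and it was lost in the fit of all probe sets (adjusted p = 0.0649).

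Slc38a2 (chr15:96687392-96699728), or SNAT2, is the sodium-coupled carrier of small neutral amino acids whose activity is known to adapt to amino acid supply. Its brightest probe set gave 6569.8, 5552 and 6416 in null tunicamycin livers and 5077, 4510.0 and 3907 in null vehicle livers. In control livers Slc38a2 gave 6103, 6344 and 6993 with tunicamycin and 2838, 4766 and 3801 with vehicle. As deposited, every tunicamycin array lay above every vehicle array. After normalization this held within each genotype, but control tunicamycin replicate 1 (12.45) lay below null vehicle replicate 1 (12.48). The null change of Slc38a2, 0.29 ± 0.19, did not pass the test (1.22-fold, adjusted p = 0.327), and in control livers it rose by 0.62 ± 0.19 (1.54-fold, adjusted p = 0.0283). The control call was lost on leaving out any 1 of the control arrays other than vehicle replicate 2 (0.42 to 0.68, adjusted p = 0.0507 to 0.0950). A less bright probe set of the gene differed by 0.70 ± 0.25 in null livers (adjusted p = 0.118) and 0.60 ± 0.25 in control livers (adjusted p = 0.147).

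Slc38a3 (chr9:107651154-107668968), or SNAT3, is the glutamine carrier of system N, which is well known in hepatocytes. Slc38a3 gave 7914, 6899.8 and 9729.7 in null tunicamycin livers and 6426, 8436 and 6339 in null vehicle livers. In control livers it gave 8204, 8469.6 and 9204 with tunicamycin and 8004, 6807 and 7623 with vehicle. The null groups overlapped, and the control groups were apart as deposited but overlapped after normalization. The changes were small in both genotypes, 0.08 (95% interval -0.23 to 0.40) in null livers and 0.08 (-0.24 to 0.40) in control livers, with adjusted p of 0.748 and 0.737.

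Slc6a9 (chr4:117835258-117869305), or GlyT1, is a sodium- and chloride-coupled carrier of glycine. Its brighter probe set gave 1896, 1202 and 1982 in null tunicamycin livers and 744, 817 and 688 in null vehicle livers. In control livers Slc6a9 gave 1447, 1206 and 1295 with tunicamycin and 594, 688 and 549 with vehicle. All tunicamycin arrays lay above all vehicle arrays, and here null tunicamycin replicate 2 was the lowest of its group. Slc6a9 rose by 0.91 ± 0.14 in null livers (1.88-fold, adjusted p = 0.0012) and by 0.86 ± 0.14 in control livers (1.81-fold, adjusted p = 0.00096). Without replicate 2 the null change was 1.02 ± 0.15 (adjusted p = 0.00101). Both calls of Slc6a9 held under all 26 alternative settings. The other probe set of Slc6a9 differed by 0.52 ± 0.18 in null livers (adjusted p = 0.0930) and by 0.39 ± 0.18 in control livers (adjusted p = 0.177).

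**Figure D2:**
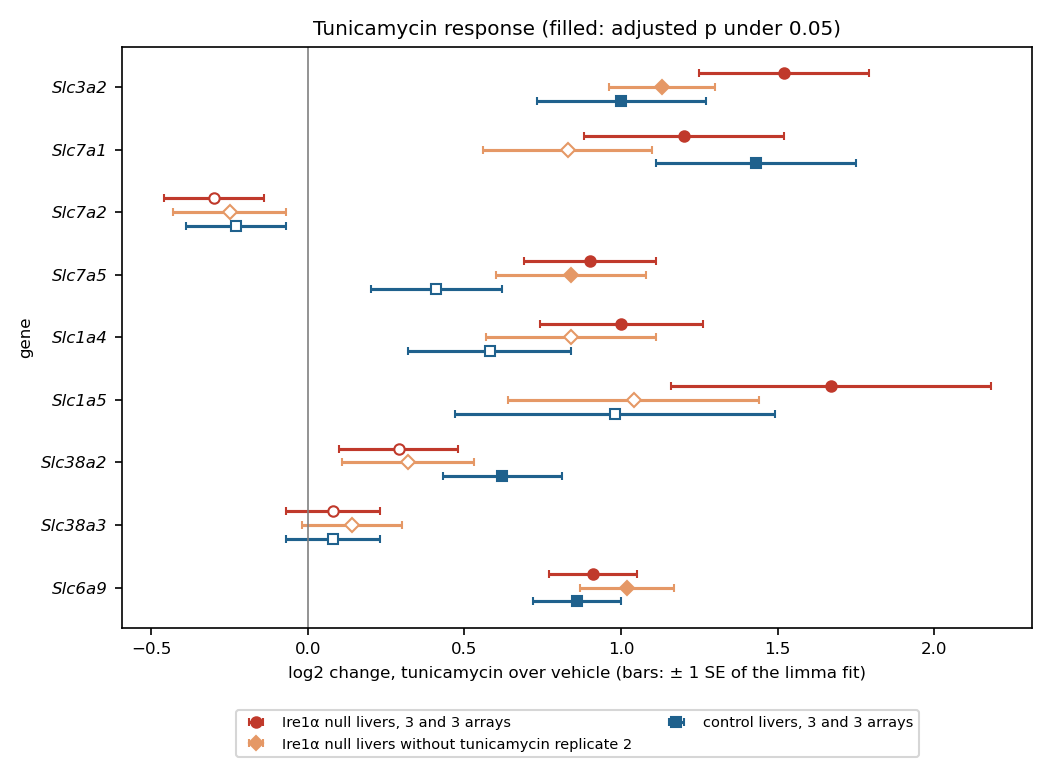
Log2 change with tunicamycin over vehicle for the 9 transporters tested at gene level (bars, 1 standard error of the limma fit; filled symbols, adjusted p under 0.05), in null livers, in null livers without tunicamycin replicate 2 and in control livers. Slc6a9 is at 0.91, 1.02 and 0.86 in these 3 estimates, while Slc1a5 is at 1.67, 1.04 and 0.98.

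Over the single probe sets, 6 of 23 rose in null livers, where 4.23% of all 34945 probe sets rose, and 4 of 23 rose in control livers, where 7.67% rose. The 6 in null livers were those of Slc3a2 and Slc7a5, the brightest of Slc7a1 and Slc6a9, and 2 of Slc1a4. In null livers without tunicamycin replicate 2, 3 of 23 rose, beside 4.11% of all probe sets: those left were of Slc3a2, Slc6a9 and Slc1a4, while Slc7a5 (adjusted p = 0.0634), the brightest of Slc7a1 (0.0993) and the brightest of Slc1a4 (0.0958) were lost. The 4 in control livers were that of Slc3a2 and the brightest of Slc7a1, Slc38a2 and Slc6a9. No probe set of a transporter fell in either genotype. Where a gene had several probe sets, the sign of the change differed between them for Slc7a2 and Slc1a5 in null livers, and for Slc7a1, Slc7a2 and Slc1a5 in control livers.

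**Figure D3:**
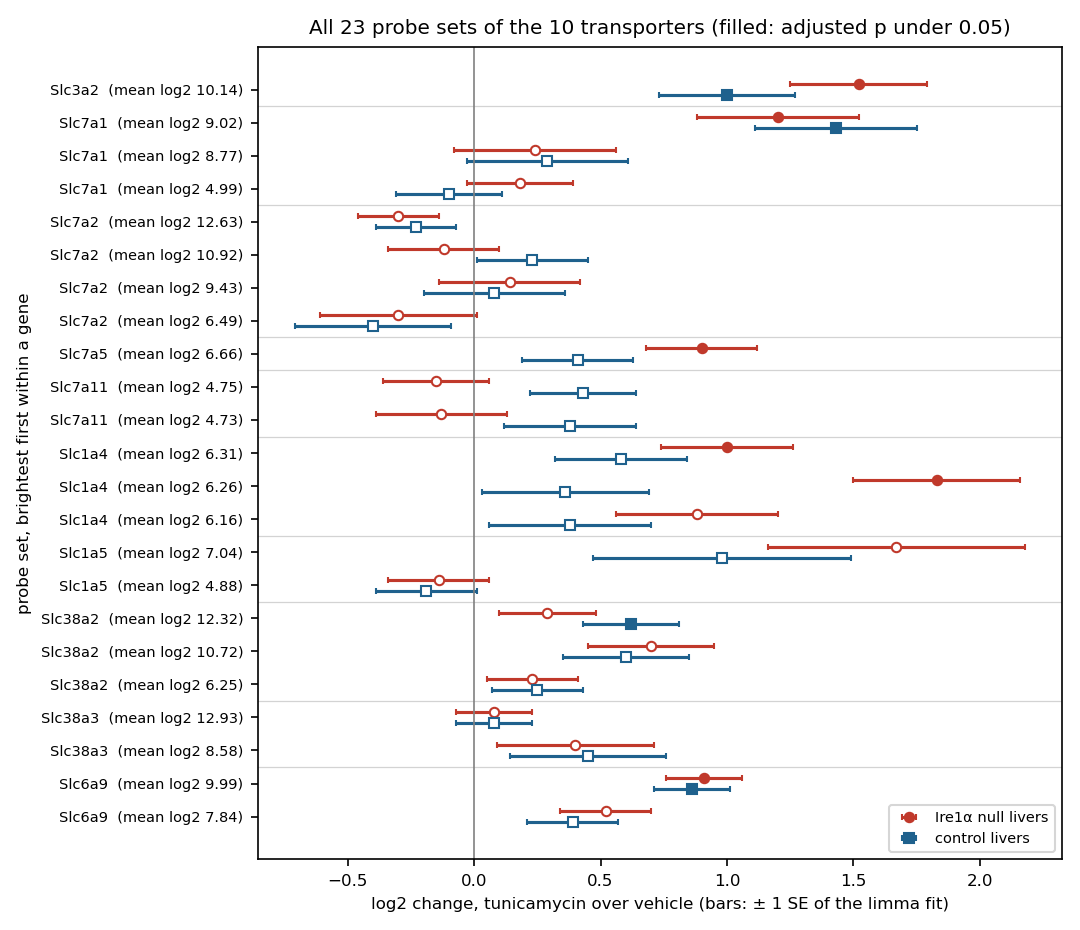
Log2 change with tunicamycin over vehicle of all 23 probe sets (bars, 1 standard error of the limma fit without a filter on dim probe sets; filled symbols, adjusted p under 0.05), brightest first within each gene, with the mean log2 level beside the gene. The first probe set of Slc7a1 is at 1.20 in null livers and 1.43 in control livers, and the second is at 0.24 and 0.29.

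In tunicamycin-treated livers 0 of the 9 transporters were called between null and control mice in the limma fit, where 3.99% of all genes were, and 3 had an unadjusted p under 0.05. These 3 were Slc1a4, higher by 0.69 (95% interval 0.13 to 1.25, adjusted p = 0.206), Slc7a5, by 0.49 (0.03 to 0.96, adjusted p = 0.287), and Slc6a9, by 0.40 (0.09 to 0.71, adjusted p = 0.179). For Slc6a9 all 3 null arrays lay above all 3 control arrays after normalization, where 21.8% of all genes did not overlap. With array quality weights the difference was 0.50 and passed the test (adjusted p = 0.0217). That setting also called 1284 of 14568 genes, against 581 in the main fit. It was the only 1 of 26 alternatives that called a transporter in this comparison. On the deposited scale the lowest null array of Slc6a9, replicate 2 at 1202, was just under the lowest control array at 1206. The intervals of the others ran from -0.38 to 0.80 for Slc3a2, -1.15 to 0.25 for Slc7a1, -0.67 to 1.56 for Slc1a5 and -0.42 to 0.39 for Slc38a2. Those of Slc7a2 (-0.29 to 0.40) and Slc38a3 (-0.37 to 0.27) were the narrowest of the rest. On leaving out null tunicamycin replicate 2 the estimates were -0.18 for Slc3a2, -0.82 for Slc7a1, 0.44 for Slc7a5, 0.52 for Slc1a4, -0.19 for Slc1a5 and 0.51 for Slc6a9, 0 of 9 were called, beside 3.63% of all genes, and the lowest adjusted p was 0.0972, that of Slc6a9.

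With vehicle 0 of the 9 were called between null and control livers, beside 0% of all genes in the limma fit, and 1 had an unadjusted p under 0.05. That gene was again Slc6a9, at 0.35 (95% interval 0.04 to 0.66, adjusted p = 0.988). The 9 differences ran from -0.31 for Slc3a2 to 0.35 for Slc6a9. The test of whether the tunicamycin response itself differed between genotypes called 0 of the 9, where it called 0.837% of all genes, and 0 of these gene-level tests had an unadjusted p under 0.05. Its estimates, null response minus control response, ran from -0.33 for Slc38a2 (95% interval -0.91 to 0.24) to 0.69 for Slc1a5 (-0.89 to 2.26). For Slc3a2 the estimate was 0.52 (-0.31 to 1.35), for Slc7a5 0.49 (-0.17 to 1.15) and for Slc6a9 0.05 (-0.39 to 0.49). When null tunicamycin replicate 2 was left out, the estimate was 0.05 for Slc1a5, 0.13 for Slc3a2, -0.60 for Slc7a1, 0.43 for Slc7a5 and 0.16 for Slc6a9, and again 0 of 9 were called. Calls of Slc7a5, Slc1a4, Slc1a5 or Slc38a2 in 1 genotype are therefore not shown to differ from the other genotype. The comparisons share arrays, so their values are not independent of each other.

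The array with kidney transcripts differed from the others for part of the transporters. On the normalized log2 scale null tunicamycin replicate 2 read 9.21 for Slc1a5, against at most 8.01 on the other 11 arrays, and 11.65 for Slc3a2, against at most 10.72. For Slc7a1 it read 10.19 against at most 10.01, and for Slc1a4 7.38 against at most 7.13. The other 5 tested members were within the range of the 11 arrays. The summed intensity of the 12 kidney markers was 457 to 28465 in null tunicamycin livers, 597 to 634 in null vehicle livers, 363 to 453 in control tunicamycin livers and 458 to 605 in control vehicle livers. Of 34 other amino acid transporters tested, 8 lay more than 1 above the highest of the other arrays on this array. Slc7a12 was 4.23 above, Slc6a19 3.73, Slc1a1 3.19, Slc7a9 2.95, Slc6a20b 2.45, Slc6a18 1.89, Slc7a7 1.60 and Slc3a1 1.20. Slc3a1 and Slc7a9 are the subunits of the cystine transporter of the kidney, and Slc6a19 is the neutral amino acid carrier of kidney and intestine. The part of these transcripts in the level of Slc1a5, Slc3a2, Slc7a1 and Slc1a4 on that array was not tested, beyond the changes without it given above.

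Markers of other liver and blood cells were also set against the treatment. Adgre1, the macrophage surface protein F4/80, was the 1 of 7 Kupffer cell and macrophage markers that was called, and it fell by 0.81 ± 0.21 in null livers (adjusted p = 0.0195) and fell by 0.75 ± 0.21 in control livers (adjusted p = 0.0196). The summed intensity of the 7 was 4267 to 8676 in null tunicamycin livers, 5192 to 8394 in null vehicle livers, 7245 to 9599 in control tunicamycin livers and 6745 to 11647 in control vehicle livers, so the treatments overlapped. Alas2, the first enzyme of haem synthesis in red cell precursors, was the 1 of 2 measured erythroid markers that was called, and it fell by 1.33 ± 0.28 in null livers (adjusted p = 0.00675) and fell by 0.82 ± 0.28 in control livers (adjusted p = 0.0477). The summed intensity of these 2 did not overlap between treatments in either genotype, at 334 to 747 in null tunicamycin livers, 853 to 1033 in null vehicle livers, 384 to 553 in control tunicamycin livers and 681 to 902 in control vehicle livers. Of the 12 kidney markers, Slc5a2 fell in control livers, by 1.03 ± 0.29 (adjusted p = 0.0211). None of 5 endothelial, 6 stellate cell, 3 bile duct and 4 lymphocyte markers was called in either tunicamycin comparison. The summed intensity of the 3 bile duct markers was 109 to 1005 in null tunicamycin livers, 70.5 to 160.0 in null vehicle livers, 78.6 to 88.0 in control tunicamycin livers and 100.3 to 121 in control vehicle livers. The highest sum was that of null tunicamycin replicate 2, the array with kidney transcripts. On the normalized log2 scale Krt7 read 9.52 there, against at most 6.32 on the other 11 arrays, and Epcam 8.59, against at most 5.89. The third marker, Krt19, was within the range of the others, at 5.71. The part of these cells in the changes of the transporters was not tested.

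**Figure D4:**
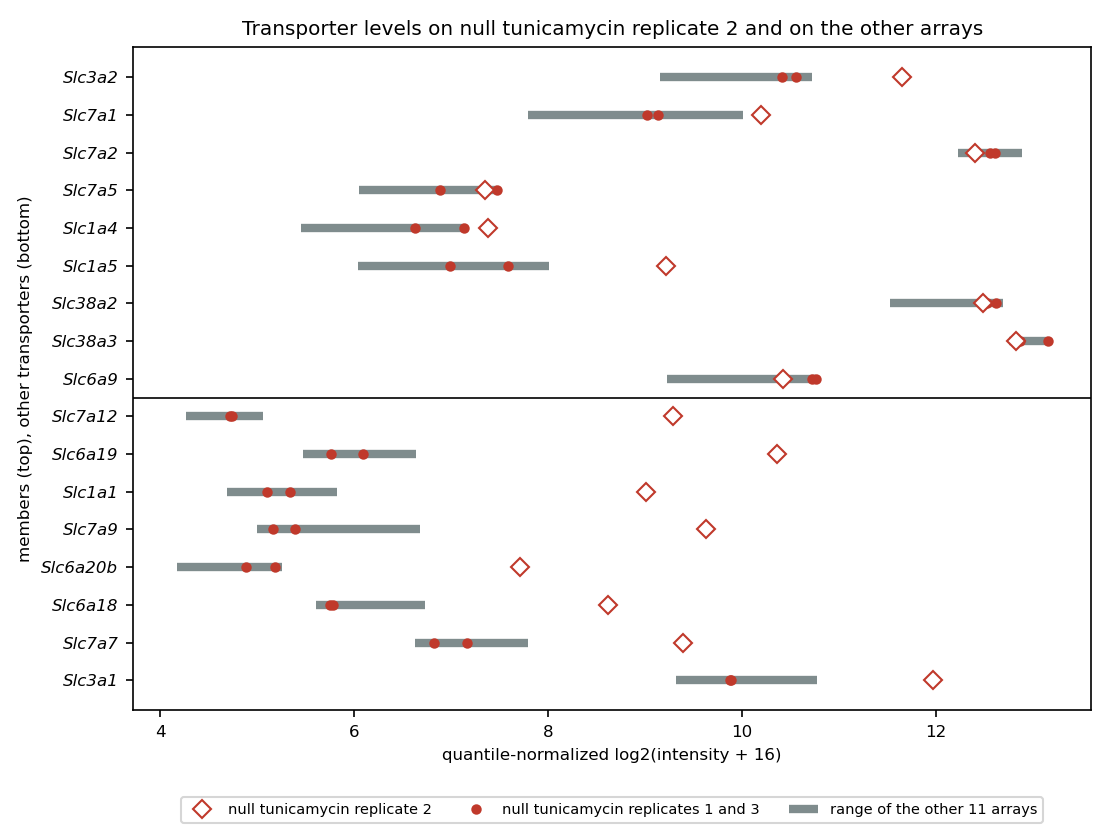
Quantile-normalized log2(intensity + 16) of the 9 tested transporters (top) and of 8 other amino acid transporters (bottom) on null tunicamycin replicate 2 (diamonds), on null tunicamycin replicates 1 and 3 (points) and over the other 11 arrays (grey range). Slc1a5 is 1.19 and Slc3a2 is 0.93 above the highest other array, and Slc7a12 is 4.23 above it.

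Control vehicle replicate 1 was the highest control vehicle array for Slc3a2, Slc7a5, Slc1a5 and all 3 probe sets of Slc1a4, and the lowest for the brightest probe sets of Slc7a1 and Slc38a2. The 5′ over 3′ ratio of the actin control probe sets, a sign of RNA quality, was 0.205 to 0.434 in null tunicamycin livers, 0.296 to 0.633 in null vehicle livers, 0.295 to 0.389 in control tunicamycin livers and 0.454 to 1.097 in control vehicle livers, so that it was lower with tunicamycin on all control arrays and overlapped between treatments in null livers. With the actin ratio as a covariate 3 of the 9 transporters were called in each genotype, and Slc3a2, Slc7a1 and Slc6a9 were called in both. Over all 14568 genes this setting called 1651 in null livers, against 2449 without it, and 1885 in control livers, against 3636. The Gapdh ratio was 0.370 to 0.435 in null tunicamycin livers and 0.523 to 0.577 in control tunicamycin livers. With tunicamycin it was thus lower on all null arrays than on all control arrays. With vehicle it overlapped between genotypes (0.181 to 0.642 in null livers, 0.352 to 0.774 in control livers). Between null and control livers with tunicamycin 0 of the 9 transporters were called with either ratio as a covariate. Over all genes 542 were called there with the Gapdh ratio and 623 with the actin ratio, against 581 with neither. The part of RNA quality in these differences was not tested beyond these fits.

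Of 41 other amino acid transporters of the solute carrier families, 34 were tested. In null livers 0 of them rose and 1 fell, where 9.23% of all genes fell, and in control livers 2 rose and 3 fell, where 13.3% fell. When null tunicamycin replicate 2 was left out, 32 were tested, with 0 rising and 3 falling in null livers and 2 rising and 6 falling in control livers. Slc36a1, a proton-coupled carrier of lysosomes and plasma membrane, fell in both, by 1.69 ± 0.17 in null livers (adjusted p = 4.97e-05, and -1.65 ± 0.19 without null tunicamycin replicate 2) and fell by 1.46 ± 0.17 in control livers (adjusted p = 6.77e-05). Slc36a4 had a null change of 0.44 ± 0.18 (adjusted p = 0.119; 0.45 ± 0.21 without that array) and rose by 1.09 ± 0.18 in control livers (adjusted p = 0.000913). Slc6a6, the taurine carrier, had a null change of -0.55 ± 0.28 (adjusted p = 0.205), or -0.90 ± 0.21 without null tunicamycin replicate 2, where it passed (adjusted p = 0.0158), and fell by 1.24 ± 0.28 in control livers (adjusted p = 0.00622). The median change of the 34 was -0.09 in null livers and -0.15 in control livers, close to the medians of all genes.

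Slc38a10, a relative of Slc38a2 and Slc38a3, was the single one of these 34 that differed between genotypes with tunicamycin, where 3.99% of all genes did. Without null tunicamycin replicate 2 it was 1 of 32, beside 3.63% of all genes. Neither count is above the share over all genes. Slc38a10 was lower in null livers by 1.01 ± 0.22 on the log2 scale (log2 difference -1.01, adjusted p = 0.0217), and the difference was -1.21 ± 0.21 without null tunicamycin replicate 2 (adjusted p = 0.00714). Its tunicamycin change was -0.32 ± 0.22 in null livers (adjusted p = 0.363), and in control livers Slc38a10 rose by 0.91 ± 0.22 (adjusted p = 0.00884). The test of the difference between these responses gave -1.23 ± 0.31 (adjusted p = 0.115), and -1.42 ± 0.28 without that array (adjusted p = 0.0409).

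In the ATF4 and amino acid response list 14 of 17 genes rose in null livers, beside 7.59% of all genes, and 13 of 17 in control livers, beside 11.6%, with 0 falling. In null livers 12 rose without null tunicamycin replicate 2, beside 7.08%, where the null changes were 5.39 ± 0.27 for Ddit3, 1.94 ± 0.15 for Atf4, 2.72 ± 0.55 for Asns and 2.23 ± 0.38 for Chac1, all called. Ddit3, which encodes the stress factor CHOP, rose by 5.37 ± 0.24 in null livers and 6.01 ± 0.24 in control livers (adjusted p = 2.14e-07 and 3.95e-08). Atf4 itself, named for its role and not by its p, rose by 2.05 ± 0.14 in null livers and 2.11 ± 0.14 in control livers (adjusted p = 3.8e-06 and 1.45e-06). Asns, asparagine synthetase, rose by 2.91 ± 0.50 in null livers and 3.44 ± 0.50 in control livers (adjusted p = 0.00212 and 0.000365). Median changes of the list were 2.05 in null livers and 2.11 in control livers, above those of the transporters, a difference that was not tested. The composite motif described for Slc7a11 and Slc1a4 was in 6 of 19 promoter windows of this list, those of Asns, Atf3, Chac1, Nupr1, Trib3 and Vldlr. It was in 3.97% of the windows of all genes, and in 2 of 49 windows of the other amino acid transporters, both of Slc7a7. With tunicamycin 2 of the 17 were higher in null than in control livers, where 3.99% of all genes differed: Sesn2 by 1.05 ± 0.21 (adjusted p = 0.0156) and Vldlr by 1.42 ± 0.34 (adjusted p = 0.0366). On leaving out null tunicamycin replicate 2, Sesn2 was higher by 1.00 ± 0.24 (adjusted p = 0.0428), Vldlr at 1.27 ± 0.37 no longer passed (adjusted p = 0.0972), and Eif2ak3, which encodes PERK, was lower in null livers (-1.60 ± 0.22, adjusted p = 0.00197).

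Over all genes 7.59% rose and 9.23% fell in null livers, and 11.6% rose and 13.3% fell in control livers. Of 12 genes of cystine use and glutathione, 1 rose and 2 fell in null livers and 1 rose and 4 fell in control livers. With null tunicamycin replicate 2 left out 1 rose and 3 fell in null livers. The gene that rose in both was Chac1, which degrades glutathione, by 2.61 ± 0.40 in null livers (adjusted p = 0.00103) and by 3.98 ± 0.40 in control livers (adjusted p = 2.55e-05). Gclc, the catalytic subunit of the first step of glutathione synthesis, had a null change of -0.38 ± 0.19 (adjusted p = 0.196), or -0.44 ± 0.21 without that array, and fell by 1.06 ± 0.19 in control livers (adjusted p = 0.00147). Of 14 genes of glutamine, arginine and glycine metabolism, 1 rose, Asns, and 3 fell in null livers, and 1 rose, Asns, and 6 fell in control livers. When that array was left out 13 were tested, of which 1 rose and 2 fell in null livers (Gldc, at -2.36 ± 0.18, and Asl, at -0.73 ± 0.16). Gldc, the decarboxylase of the glycine cleavage system, fell by 1.72 ± 0.40 in null livers (adjusted p = 0.0125) and fell by 3.11 ± 0.40 in control livers (adjusted p = 0.000155). Asl of the urea cycle fell by 0.70 ± 0.15 in null livers (adjusted p = 0.00651) and fell by 0.78 ± 0.15 in control livers (adjusted p = 0.002).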

How the data were processed

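Total RNA was extracted from liver with Trizol and biotinylated cRNA was prepared from 6 µg, per the labels. The authors deposited 1 linear intensity per probe set and array, while the sources used here do not name the summary algorithm, scaling or filters. Of 45101 probe sets 64 controls, 932 with several symbols and 9160 with none were left out. On log2(intensity + 16) the 12 arrays were brought to common quantiles with limma 3.58.1 in R 4.3.3. For gene tests the dimmest 30% of probe sets were dropped and the brightest probe set stood for its gene (14568 genes), while the fit of 34945 probe sets had no filter. Group means were fitted over all 12 arrays (8 residual degrees of freedom), with 5 contrasts, eBayes and Benjamini-Hochberg adjustment over all features. Intervals are 95%. Python 3.11.15 with matplotlib 3.10.9 drew the figures.

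The members, lists and tests were chosen with earlier results of these data known, and the kidney list was written for null tunicamycin replicate 2 with its leading genes already seen. Named genes are all members, up to 4 called rises and falls among other transporters, those more than 1 above all other arrays on the kidney array, up to 3 called genes of each other list by p, and for each called member the 3 genes with the closest pattern. Atf4, Eif2ak3, Ern1, the cell type markers and genes named only for a motif fall outside this rule. Not every gene that the rule picks is given with its change, Atf3 and Nupr1 among those left out. No label links replicate numbers across groups, so no block was used. No 2 arrays were identical (0 pairs, correlations 0.9158 to 0.9896). Alternatives covered pseudocount, filter, normalization, choice of probe set, empirical Bayes options, weights, block, probe ratios as covariates and leaving out each array. The group fit and its calls were tested on simulated gene values, while normalization, filter, choice of probe set and motif search were not part of that test.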

Additional observations from a re-analysis of the deposited data

How the results depend on the processing

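The number of transporters that rose with tunicamycin in null livers was 6, and it ran from 2 to 6 on leaving out 1 array. It was 3 with the actin ratio as a covariate. In control livers the number was 4, ran from 2 to 4 on leaving out 1 array, and was 3 with the actin ratio and with only the 2 groups compared. On leaving out 1 array the called count over all genes ran from 1614 to 2415 in null livers and from 2582 to 4071 in control livers. With the replicate number as a block 5 transporters were called in null livers, where Slc1a5 was lost (1.67, adjusted p = 0.0691), and 4 in control livers. The deviations of same-numbered samples from their group means were mixed (18 correlations, -0.41 to 0.49, 5 of them over 0.1). The highest, 0.49, was between control tunicamycin and control vehicle replicate 3, while replicate 2 of these groups gave -0.07. Whether replicate numbers pair samples was not tested. Between null and control livers with tunicamycin the number of transporters called was 0, and 1 with array quality weights. It was 0 with vehicle and for the interaction under all alternatives. Of 1161 values of single transporters under alternatives, 37 lost the call, 2 gained it and 50 changed sign, none of them a called value (lowest adjusted p 0.681). Only the 10 called results, each run under 26 alternatives, could lose a call, so the 37 losses all lie among these. The cause was not tested.

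Values that changed sign were as follows. With the actin ratio the tunicamycin change of Slc38a3 was -0.02 in null livers and -0.10 in control livers. Between null and control livers with tunicamycin, Slc3a2 was at -0.08 with array weights, Slc7a2 at -0.04 with centred medians, 0.00 as deposited and -0.09 with the mean of probe sets, Slc38a2 at 0.05 with that mean, 0.01 with weights and 0.01 with the actin ratio, and Slc38a3 at 0.03 with the Gapdh ratio. With vehicle, Slc7a1 was at 0.05 with the actin ratio, Slc7a2 at -0.02 and Slc1a4 at -0.21 with the mean of probe sets, Slc1a5 at 0.03 and Slc38a3 at 0.06 with the Gapdh ratio. Slc7a5 there was at 0.00 with a pseudocount of 64, -0.01 centred, -0.02 as deposited and -0.15 with the actin ratio. For the interaction Slc7a2 was at 0.06 with weights, Slc38a3 at -0.05 centred and -0.02 with the mean of probe sets and with the Gapdh ratio, and Slc6a9 at -0.01 centred.

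On leaving out 1 array, null minus control with tunicamycin ran from -0.18 to 0.44 for Slc3a2, -0.07 to 0.22 for Slc7a2, -0.19 to 0.92 for Slc1a5, -0.06 to 0.05 for Slc38a2 and -0.15 to 0.01 for Slc38a3. With vehicle it ran from -0.14 to 0.23 for Slc7a5, -0.79 to 0.43 for Slc1a4 (where the brightest probe set changed) and -0.47 to 0.16 for Slc1a5. The interaction ran from -0.60 to 0.11 for Slc7a1, -0.19 to 0.09 for Slc7a2, -0.10 to 0.10 for Slc38a3 and -0.04 to 0.16 for Slc6a9. The null response of Slc38a3 ran from -0.02 to 0.18. Over all genes the actin ratio moved the called count to 1651 from 2449 in null livers and to 1885 from 3636 in control livers, and fitting only the 2 groups compared gave 1487 in null livers. Between genotypes with tunicamycin 581 genes were called, 1284 with array weights, 364 with only the 2 groups and at the fewest 279, without control tunicamycin replicate 2. The interaction called 122, against 71 and 186 with pseudocounts of 1 and 64, 225 with weights, 59 with the block and at the fewest 14, without control tunicamycin replicate 2. With 3 arrays a group, and with Slc7a11 and part of the probe sets of Slc7a1 and Slc1a5 near the dim end, small changes were not detectable.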

Other observations

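For each transporter called in a comparison, the 3 genes of the 14568 with the closest pattern over the 12 arrays were listed by Pearson's r, which includes the treatment difference shared by all arrays and is given as a description. The pattern of Slc6a9 was closest to Kctd15 (r = 0.976), Ppm1b (0.972) and Gpatch4 (0.965), and that of Slc38a2 to Ddit4 (0.943), Snhg3 (0.942) and Mib2 (0.937). Slc7a1 was closest to Mnt (0.952), Mthfd2 (0.944), a mitochondrial enzyme of folate metabolism, and Btg2 (0.936). Slc3a2 was closest to Jak3 (0.954), Ptdss2 (0.954) and Smtn (0.951). Slc7a5 was closest to App (0.935), Rpl19 (0.922) and Crip2 (0.916), Slc1a4 to Lrrc8d (0.931), Jag1 (0.929) and Emc6 (0.923), and Slc1a5 to Spire1 (0.930), Clic4 (0.907) and Zfp251 (0.899). Without null tunicamycin replicate 2 the r of Slc1a5 with these 3 genes was 0.852, 0.825 and 0.785, and that of Slc6a9 with its 3 was 0.977, 0.980 and 0.977.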
